A study of Mus musculus with 6 samples.

Results

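In all, 10 genes that mark dendritic cells or their subsets were followed in lacrimal glands of NOD/Ltj and ICR mice. They were chosen by name, as 10 of the 55401 gene identifiers in the table of gene counts, and 9 of them were among the 18537 genes with enough counts to be tested. Of the 10, 3 are shared by conventional dendritic cells (Itgax, Flt3, Zbtb46), 3 mark the type 1 conventional subset (Xcr1, Clec9a, Batf3), 1 is a lectin of type 2 and monocyte-derived cells (Cd209a), 1 marks plasmacytoid cells (Siglech) and 2 are chemokines of mature cells (Ccl17, Ccl22). Polyadenylated RNA of lacrimal gland was sequenced in 3 libraries of NOD/Ltj and 3 of ICR. The inbred NOD/Ltj mice develop autoimmunity that reaches the tear glands, and they stood for Sjögren's syndrome in this study. The control ICR mice are outbred, so strain background and disease cannot be told apart. No treatment is given for either strain, and neither age, sex nor pooling of animals is given in the labels. The genotype label and the column headers name NOD, while the titles of these samples read MOD.

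Dendritic cells take up antigen in tissues and present it to T cells. Conventional cells arise under the growth factor FLT3 ligand and fall into a type 1 subset, which takes up dying cells and primes CD8 T cells, and a type 2 subset, which mainly serves CD4 T cells. Plasmacytoid cells are known for producing type I interferon. Mature cells make chemokines and move to lymphoid tissue, and in inflamed exocrine glands they can gather near lymphocyte clusters.

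The NOD/Ltj libraries held 62318534 to 64000969 estimated counts and the ICR libraries 58426580 to 76554340. Low counts came in steps of about 4, so 1 sequenced fragment added about 4 counts to a gene. A count of 0 allows up to 3 fragments, or 12 counts, which is 0.149 to 0.222 CPM (counts relative to the TMM-scaled library size) and covers counting error only. Of 30 values of the 10 genes in each strain, 2 in NOD/Ltj and 8 in ICR were at or under 12 counts. The gland genes Lpo, Bhlha15, Aqp5 and Rab3d stood above 60 CPM on average in both strains and were not called. Prol1, a secreted protein of the gland, was called lower, at 2.55 CPM in NOD/Ltj and 78.7 ± 64.0 CPM in ICR (mean, SD over 3 libraries, adjusted p = 0.016 by edgeR). With 1 library left out it was called in 2 of 6 fits, and limma-voom did not call it (adjusted p = 0.0607). Ptprc, which encodes the CD45 antigen of all leukocytes, averaged 87.5 ± 33.3 CPM in NOD/Ltj and 10.1 ± 3.34 CPM in ICR (SD over 3 libraries each), with a log2 fold change of 3.11 ± 0.38 (SE, adjusted p = 0.0108 by edgeR). Of 13 macrophage and monocyte markers, ICR 1 was the highest ICR library for 11, with Mrc1 at 58.2 CPM against 7.63 and 7.85 CPM in ICR 2 and ICR 3, and it was not for Mertk and Ly6c2. In such whole-tissue RNA, fewer cells of a type and less RNA per cell cannot be told apart.

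Most of the dendritic cell genes had higher levels in NOD/Ltj than in ICR glands, and Cd209a had lower ones. Of the 9 genes tested, 8 had a positive log2 fold change (NOD/Ltj over ICR) and 1 a negative one. Ccl22 alone was called at an adjusted p under 0.05, where 1.88% of all genes tested were called higher and 0.361% lower (2.24% in either direction). The CPM values of 5 genes did not overlap between the strains with NOD/Ltj higher (Itgax, Flt3, Zbtb46, Siglech and Ccl22), against 11.2% of all genes tested. Cd209a did not overlap with NOD/Ltj lower, against 8.89% of all genes. The same 6 genes had an unadjusted p under 0.05, which 8.00% of all genes reached higher and 5.05% lower. The median log2 fold change of the 9 genes was 1.57, beside −0.03 over all genes tested. With DESeq2, 4 of the 9 were called higher (Ccl22, Itgax, Flt3 and Siglech), beside 4.87% of all genes. With limma-voom 0 were, beside 0.664% of all genes.

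**Figure D1:**
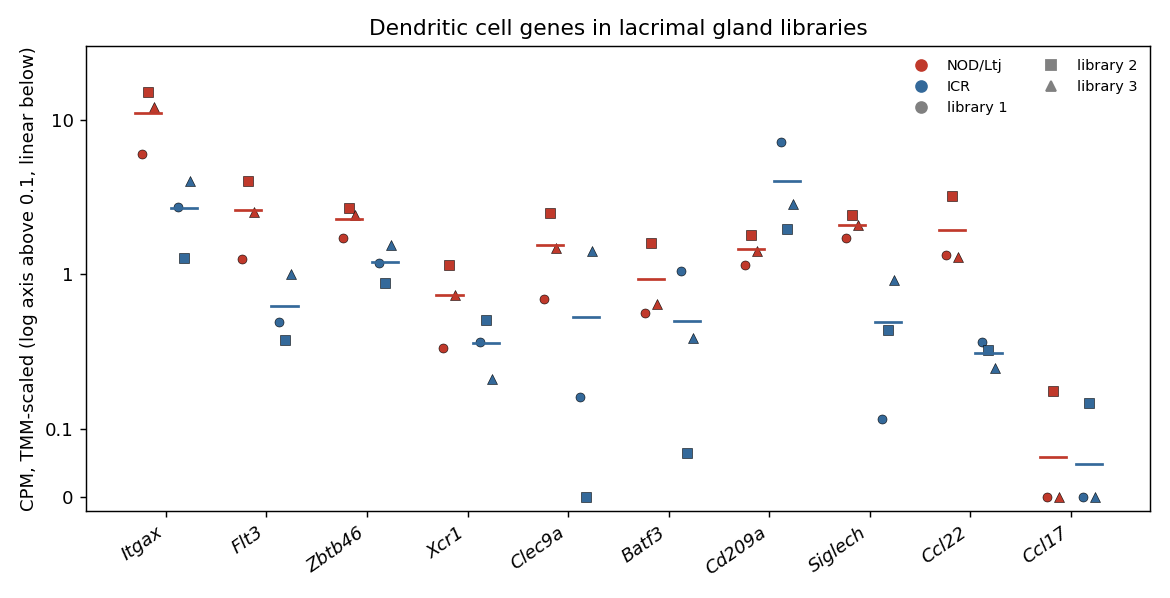
CPM of each of the 10 dendritic cell genes in every library (y axis, logarithmic above 0.1 CPM), with NOD/Ltj left of ICR, marker shapes for library numbers and bars for the means of 3 libraries. Itgax, Flt3, Zbtb46, Siglech and Ccl22 are higher in all NOD/Ltj libraries, Cd209a is lower in them, and Ccl17 is at 0 in 4 of 6 libraries.

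Ccl22, a chemokine of mature dendritic cells and macrophages that binds the receptor CCR4, rose in NOD/Ltj. It stood at 1.33, 3.19 and 1.29 CPM in NOD 1, 2 and 3, against 0.361, 0.323 and 0.245 CPM in ICR 1, 2 and 3. Each NOD/Ltj library was thus above each ICR library, and NOD 2 was the highest. The fold change was 6.22, or 2.64 ± 0.51 on the log2 scale (SE, n = 3 each, adjusted p = 0.048 by edgeR). It rested on counts of 25, 20 and 14 in ICR 1, 2 and 3. This call ended whichever library was left out (adjusted p = 0.0621 to 0.209 by edgeR, log2 fold change 2.06 to 2.87), and the value was 2.06 without NOD 2.

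Ccl17, the other CCR4 ligand and a neighbour of Ccl22 on the same chromosome, was at or near the limit of detection. It had 0, 14 and 0 counts in NOD 1, 2 and 3 and 0, 9 and 0 counts in ICR 1, 2 and 3. It did not pass the filter on low counts, and no fold is given. The receptor gene Ccr4 had 4, 21 and 15 counts in NOD/Ltj and 0, 0 and 4 in ICR, and it did not pass the filter either. Neither Ccl17 nor Ccr4 was therefore tested for a difference. Ccr4 averaged 0.188 CPM in NOD/Ltj and 0.0233 CPM in ICR, with NOD 1 and ICR 3 both at 4 counts.

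The integrin Itgax and the growth factor receptor Flt3 had about the same fold change. Itgax encodes CD11c, which dendritic cells carry together with some macrophages, natural killer cells and B cells. It stood at 5.98, 15.1 and 12.1 CPM in NOD 1, 2 and 3, against 2.72, 1.28 and 4.02 CPM in ICR 1, 2 and 3. The strains did not overlap, with a log2 fold change of 2.05 ± 0.49 (SE, n = 3 each, adjusted p = 0.0985 by edgeR, 0.0011 by DESeq2). Of its 50-base transcript windows, 8.02% also occurred in the related integrin Itgad, and Itgad had 0 to 26 counts per library. Flt3, the receptor that drives dendritic cell development, stood at 1.26, 3.99 and 2.53 CPM in NOD 1, 2 and 3, against 0.491, 0.372 and 0.996 CPM in ICR 1, 2 and 3. The strains did not overlap here either, although NOD 1 lay close to ICR 3, with a log2 fold change of 2.07 ± 0.57 (SE, n = 3 each, adjusted p = 0.145 by edgeR, 0.0124 by DESeq2). An antisense gene, Gm26597, lies at the Flt3 locus, and whether the counting used strand is not given. Of the 50-base Flt3 transcript windows, 0.049% also occurred, on either strand, in transcripts of other genes. Flt3l, the gene of the ligand, which T cells and stromal cells also make, averaged 9.58 ± 4.30 CPM in NOD/Ltj and 2.19 ± 1.34 CPM in ICR (SD, n = 3 each). Its log2 fold change of 2.13 ± 0.58 did not pass (SE, adjusted p = 0.145 by edgeR, 0.00401 by DESeq2).

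Zbtb46, a transcription factor of conventional dendritic cells that endothelial cells also express, differed less. It stood at 1.72, 2.68 and 2.41 CPM in NOD 1, 2 and 3, against 1.18, 0.872 and 1.54 CPM in ICR 1, 2 and 3. All NOD/Ltj values were above all ICR values, with a log2 fold change of 0.92 ± 0.36 (SE, n = 3 each, adjusted p = 0.335 by edgeR).

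The promoters of Itgax and Zbtb46 (250 bases before to 50 after the start of transcription, RefSeq, GRCm38.p6) are shown because both hold the AP-1 letters TGANTCA, in capitals, which dimers of BATF3 and JUN proteins can bind. The Itgax window is chr7:128129300-128129599, plus strand, and its match lies 56 to 50 bases before the start. The Zbtb46 window is chr2:181424339-181424638, minus strand, and its match lies 61 to 55 bases before the RefSeq start. The letters directly before that start, ttctcttcttctccccacag, read like the end of an intron, so this window may not be a promoter. The genome build behind the counts is not given in the sources used here, so these positions belong to the RefSeq table only.
Itgax promoter: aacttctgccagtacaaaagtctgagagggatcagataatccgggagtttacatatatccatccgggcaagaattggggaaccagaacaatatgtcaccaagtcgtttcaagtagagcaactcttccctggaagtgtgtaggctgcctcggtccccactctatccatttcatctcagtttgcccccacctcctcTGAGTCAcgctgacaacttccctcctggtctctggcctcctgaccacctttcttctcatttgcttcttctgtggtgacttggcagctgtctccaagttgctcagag
Zbtb46 promoter: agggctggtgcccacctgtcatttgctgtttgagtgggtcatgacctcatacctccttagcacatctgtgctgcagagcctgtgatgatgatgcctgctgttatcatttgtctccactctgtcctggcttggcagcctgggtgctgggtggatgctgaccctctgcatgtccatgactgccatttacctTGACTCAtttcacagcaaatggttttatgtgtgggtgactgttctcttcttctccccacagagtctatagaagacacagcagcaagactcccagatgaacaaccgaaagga
Promoters of all 10 genes were found in the table and searched on both strands for this motif and 3 more, the PU.1 core GAGGAA, an interferon-stimulated response element (ISRE; TTTC, any 2 bases, TTTC) and an NF-κB site (GGGA, any base, TTTCC). The AP-1 letters were in 2 of 10 windows, that of Zbtb46 included, beside 7.81% of 32851 promoters. The PU.1 core was in those of Batf3, Siglech and Ccl17, beside 28.3% of all promoters. Neither the ISRE nor the NF-κB site was in any of the 10, beside 3.44 and 0.411% of all promoters. No matches of different motifs overlapped, and a match is a description of the letters, not a binding site.

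The 3 genes of type 1 conventional cells overlapped between the strains. Xcr1, the receptor for the chemokine XCL1, stood at 0.333, 1.15 and 0.727 CPM in NOD 1, 2 and 3, against 0.361, 0.501 and 0.21 CPM in ICR 1, 2 and 3. NOD 1 lay below ICR 1 and ICR 2, and the log2 fold change of 1.04 ± 0.63 did not pass (SE, n = 3 each, adjusted p = 0.567 by edgeR). Xcl1, the gene of its ligand, had 44, 51 and 11 counts in NOD/Ltj and 0, 0 and 20 in ICR, and did not pass (adjusted p = 0.623 by edgeR).

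Clec9a, a lectin that recognizes actin exposed by dead cells, stood at 0.685, 2.48 and 1.47 CPM in NOD 1, 2 and 3, against 0.159, 0 and 1.42 CPM in ICR 1, 2 and 3. ICR 3 reached the level of NOD 3 while ICR 2 had 0 counts, and the log2 fold change was 1.57 ± 1.30 (SE, n = 3 each, adjusted p = 0.711 by edgeR). It was 4.22 without ICR 3 and 0.98 without ICR 2, and Clec9a shared 4.02% of its 50-base windows with the overlapping gene Clec1b. Batf3, the transcription factor that type 1 cells need to develop, stood at 0.556, 1.58 and 0.636 CPM in NOD 1, 2 and 3, against 1.04, 0.0646 and 0.385 CPM in ICR 1, 2 and 3. ICR 1 was above NOD 1 and NOD 3, and the log2 fold change was 0.89 ± 0.90 (SE, n = 3 each, adjusted p = 0.772 by edgeR). It was 2.05 without ICR 1 (adjusted p = 0.314 by edgeR), 0.38 without ICR 2 and 0.26 without NOD 2. For these 3 genes the log2 fold change lay within 2 SEs of 0 and also within 2 SEs of that of Itgax.

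Siglech, a sialic acid binding receptor of mouse plasmacytoid cells, stood at 1.72, 2.43 and 2.09 CPM in NOD 1, 2 and 3, against 0.116, 0.436 and 0.909 CPM in ICR 1, 2 and 3. Relative to its mean it varied less among the NOD/Ltj libraries than the other higher genes did, and all of them were above the ICR libraries. The log2 fold change was 2.10 ± 0.67 (SE, n = 3 each, adjusted p = 0.226 by edgeR, 0.04 by DESeq2), with 8 counts in ICR 1. It was 1.62 without ICR 1 and 2.91 without ICR 3.

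Cd209a had a fold change of the opposite sign. It encodes a mouse relative of the lectin DC-SIGN, found on type 2 and monocyte-derived dendritic cells and on some macrophages. It stood at 1.15, 1.79 and 1.41 CPM in NOD 1, 2 and 3, against 7.19, 1.97 and 2.85 CPM in ICR 1, 2 and 3. All NOD/Ltj values were below all ICR values, but NOD 2 lay close to ICR 2, and with library totals alone as the scale the strains overlapped. The log2 fold change of −1.46 ± 0.51 did not pass (SE, n = 3 each, adjusted p = 0.277 by edgeR, 0.0865 by DESeq2), and it was −0.74 without ICR 1. No 50-base window of Cd209a occurred in a transcript of another gene.

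The promoters of Ccl22 and Cd209a, the genes with the largest and with the negative log2 fold change among the 9, are shown as a contrast to those of Itgax and Zbtb46, since none of the 4 motifs was in them. The Ccl22 window is chr8:94745434-94745733, plus strand, and the Cd209a window is chr8:3748935-3749234, minus strand (RefSeq, GRCm38.p6).
Ccl22 promoter: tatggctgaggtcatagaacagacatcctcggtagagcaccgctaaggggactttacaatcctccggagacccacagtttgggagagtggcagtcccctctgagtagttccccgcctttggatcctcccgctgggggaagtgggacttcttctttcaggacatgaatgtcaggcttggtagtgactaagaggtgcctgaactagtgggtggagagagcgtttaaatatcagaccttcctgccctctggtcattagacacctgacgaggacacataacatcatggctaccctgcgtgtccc
Cd209a promoter: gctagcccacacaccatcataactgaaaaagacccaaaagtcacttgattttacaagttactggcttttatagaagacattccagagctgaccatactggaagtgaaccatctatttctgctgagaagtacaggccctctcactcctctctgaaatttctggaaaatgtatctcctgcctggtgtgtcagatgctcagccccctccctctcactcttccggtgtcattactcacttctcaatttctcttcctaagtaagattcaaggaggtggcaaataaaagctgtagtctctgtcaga
That no match was found says only that these letters are not in these windows.

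Relatives of Cd209a had the same sign. Of 6 other CD209 genes, 5 were tested, and all 5 had negative fold changes under every scaling used (TMM, DESeq2 size factors and library totals), with a median log2 fold change of −1.96, or −0.89 without ICR 1. None was called by edgeR, 3 had an unadjusted p under 0.05, and DESeq2 called 1. Cd209b, a lectin of marginal zone and other tissue macrophages in mice, had 0, 12 and 9 counts in NOD 1, 2 and 3, against 206, 66 and 77 counts in ICR 1, 2 and 3. Its strains did not overlap, and it did not pass (adjusted p = 0.0824 by edgeR, 3.88e-05 by DESeq2). All 3 NOD/Ltj libraries were at or under 12 counts, so no fold is given. Mgl2, a lectin of type 2 cells and macrophages, stood at 0.685, 1.56 and 1.94 CPM in NOD 1, 2 and 3, against 8.83, 3.55 and 2.50 CPM in ICR 1, 2 and 3 (adjusted p = 0.22 by edgeR, 0.0293 by DESeq2). Not all type 2 genes had this sign: of the 7 tested besides Cd209a, 4 were negative, Mgl2 among them, and 3 positive.

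**Figure D2:**
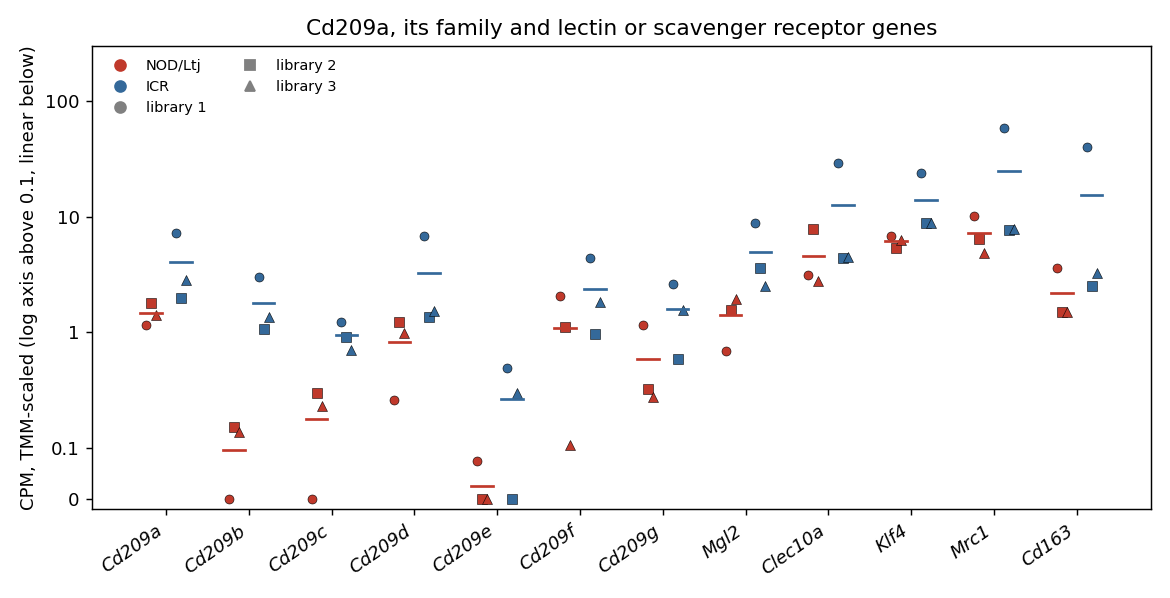
CPM of Cd209a, its 6 relatives, 2 lectins (Mgl2 and Clec10a), the transcription factor Klf4 and 2 macrophage receptors (Mrc1 and Cd163) in every library (y axis, logarithmic above 0.1 CPM), with NOD/Ltj left of ICR and bars for the means of 3 libraries. ICR 1 is the highest ICR library for all 12 genes, as for Mrc1 at 58.2 CPM. Mgl2, Clec10a, Klf4, Mrc1 and Cd163 all have negative fold changes. In the lists they come from, 3 of 7 tested type 2 genes and 9 of 13 macrophage and monocyte markers are positive and are not shown.

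The macrophage and monocyte markers were uneven in ICR 1, which was the highest of all 6 libraries for 6 of the 13. Their summed level was 178 to 269 CPM in NOD/Ltj, against 343, 86.5 and 108 CPM in ICR 1, 2 and 3. Cd163, a scavenger receptor of resident macrophages, had 193, 120 and 98 counts in NOD 1, 2 and 3, against 2769, 156 and 187 counts in ICR 1, 2 and 3. Mertk, a receptor for the uptake of dying cells, went the other way in ICR 1, at 24.9, 16.7 and 16.5 CPM in NOD 1, 2 and 3, against 7.45, 12.8 and 10.8 CPM in ICR 1, 2 and 3. Fold changes were positive for 9 of the 13 and negative for 4, and 4 positive and 1 negative had an unadjusted p under 0.05. None of the 13 markers was called by edgeR (1 higher by DESeq2), and 4 were called higher without ICR 1. Their part in the Cd209a values was not tested.

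When genes were set per 100 Itgb2 counts of the same library, Cd209a was the one that separated the strains. Itgb2 encodes the β2 integrin chain with which CD11c pairs on myeloid cells and which lymphocytes also carry, and this measure does not depend on scaling between libraries. Cd209a had 11.4, 8.26 and 9.47 counts per 100 Itgb2 counts in NOD 1, 2 and 3, against 83.3, 83.6 and 66.5 in ICR 1, 2 and 3. ICR 1 was no longer apart from ICR 2 and ICR 3. The difference in mean log2 ratio was −2.97 (exact two-sided permutation test, p = 0.1, the smallest p that 20 divisions of 6 libraries allow). Of the 9 genes, 1 had a lower ratio to Itgb2 in every NOD/Ltj library, where 55.5% of all genes tested did. This separation therefore does not set Cd209a apart from genes at large. Itgax, at 59.3, 69.7 and 81.7 counts per 100 Itgb2 counts in NOD 1, 2 and 3, against 31.4, 54.1 and 93.9 in ICR 1, 2 and 3, overlapped between the strains. Per 100 Itgax counts, Cd209a had 19.2, 11.9 and 11.6 counts in NOD 1, 2 and 3, against 265, 154 and 70.9 in ICR 1, 2 and 3 (difference in mean log2 ratio −3.31, p = 0.1, same exact test). Zbtb46 per 100 Itgax counts was also lower in every NOD/Ltj library (17.7 to 28.8) than in ICR (38.3 to 68.4). Its difference in mean log2 ratio was −1.17 (p = 0.1, same exact test). The ratio to Itgax was lower in every NOD/Ltj library for 72.9% of all genes tested.

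Set against Ptprc, all 9 genes had a lower mean log2 ratio in NOD/Ltj, and 6 of 9 were lower in every NOD/Ltj library (Itgax, Flt3, Zbtb46, Xcr1, Batf3 and Cd209a). Of all genes tested, 91.3% were, so the 6 of 9 is not a result about dendritic cell genes. Itgax had 11.1, 12.6 and 13.8 counts per 100 Ptprc counts in NOD 1, 2 and 3, against 27.9, 18.2 and 29.4 in ICR 1, 2 and 3. Its mean log2 ratio differed by −1.004 and that of Flt3 by −1.13, while those of Siglech, Ccl22 and Clec9a, which overlapped, differed by −0.77, −0.73 and −0.57 (exact two-sided permutation tests, p = 0.1, 0.1, 0.4, 0.3 and 0.7, with 0.1 the smallest possible).

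**Figure D3:**
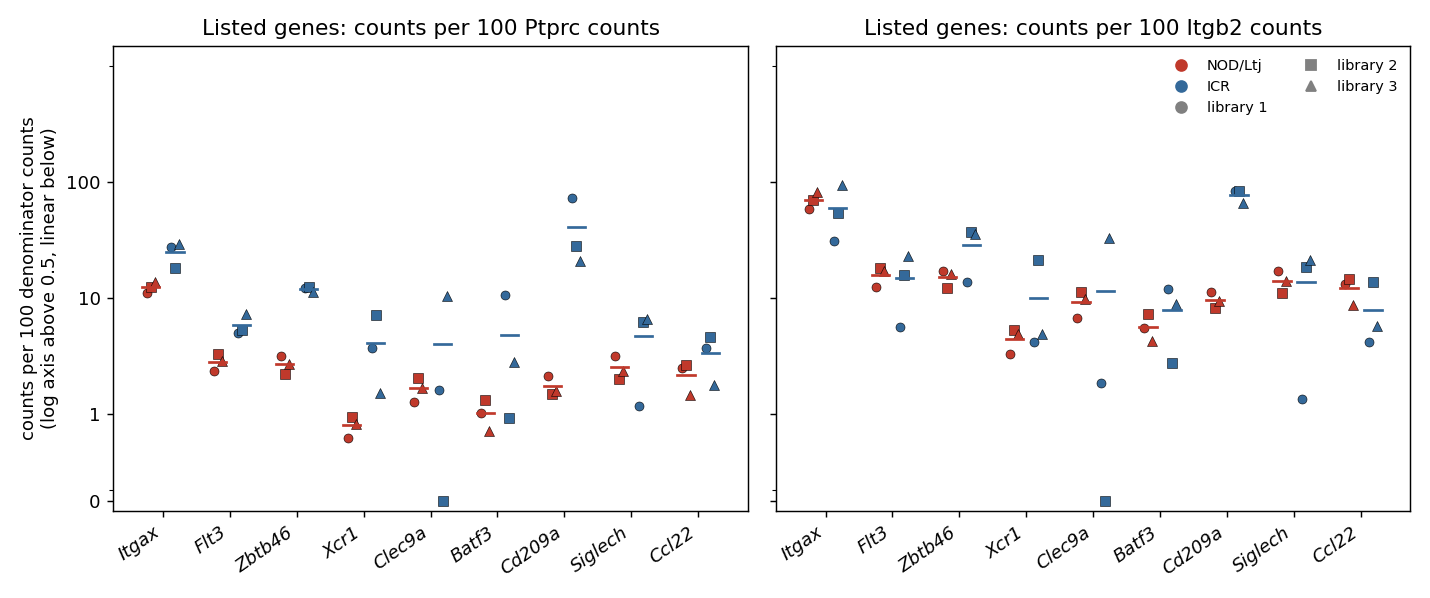
Counts of 9 dendritic cell genes per 100 counts of Ptprc (left) or Itgb2 (right) in every library (y axis, logarithmic above 0.5), with NOD/Ltj left of ICR and bars for the means of 3 libraries. Against Itgb2, Cd209a is at 8.26 to 11.4 in NOD/Ltj and 66.5 to 83.6 in ICR, and the other 8 genes overlap.

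Within NOD/Ltj, NOD 2 was the highest library for all 9 genes tested, and NOD 1 was the lowest for 8 of 9 (NOD 3 for Ccl22). Lymphocyte markers followed the same order, with 6 B cell markers summing to 105, 428 and 291 CPM and 6 T cell markers to 24.0, 67.0 and 54.6 CPM in NOD 1, 2 and 3. In ICR these sums were 2.04 to 5.84 CPM for B cells and 1.79 to 2.57 CPM for T cells. Among ICR libraries, ICR 3 was the highest for 5 of the 9 genes, ICR 1 for 3 and ICR 2 for 1.

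Per kilobase of exon (lengths from GENCODE mouse release 21), Itgax had the highest mean level in NOD/Ltj at 2.31 CPM per kb, followed by Cd209a at 0.916 and Ccl22 at 0.833. In ICR, Cd209a led at 2.53 CPM per kb, followed by Itgax at 0.556 and Batf3 at 0.311. In NOD/Ltj the range of Itgax over 3 libraries (1.25 to 3.15) lay above that of Cd209a (0.725 to 1.13) but overlapped with that of Ccl22 (0.554 to 1.37). In ICR the range of Cd209a (1.25 to 4.54) lay above that of Itgax (0.266 to 0.837). Each later pair of neighbours in either order overlapped in range. Xcr1 was near the end of both orders, at 0.165 CPM per kb in NOD/Ltj and 0.0802 in ICR.

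Other genes of the same subsets were read from lists of subset genes. Among 10 tested genes of mature dendritic cells, Ccr7, the receptor that guides mature cells and naive lymphocytes to lymphoid tissue, and Cd83, an activation marker also found on B cells, rose. All 10 had positive fold changes and 8 were not called (limma-voom called 0 and DESeq2 5). The list's median log2 fold change was 1.52, or 1.05 with Il12b at its lower bound. Ccr7 stood at 2.85, 8.15 and 9.51 CPM in NOD 1, 2 and 3, against 0.303, 0.129 and 0.664 CPM in ICR 1, 2 and 3 (log2 fold change 4.23 ± 0.71 SE, adjusted p = 0.0289 by edgeR). Cd83 had 324, 1377 and 873 counts in NOD 1, 2 and 3, against 204, 82 and 106 counts in ICR 1, 2 and 3 (log2 fold change 2.57 ± 0.46 SE, adjusted p = 0.0369 by edgeR). With 1 library left out, Ccr7 was called in 1 of 6 fits and Cd83 in 2 (adjusted p up to 0.13 and 0.164 by edgeR). Il12b, a subunit of interleukin-12, had 26, 27 and 18 counts in NOD 1, 2 and 3 and 0 in all 3 ICR libraries, at least 1.89-fold higher against a floor of 12 counts per library, and did not pass (adjusted p = 0.0512 by edgeR, 0.000648 by DESeq2).

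Of 11 plasmacytoid genes tested, Spib, a transcription factor of plasmacytoid cells and of B cells, rose, with 9 positive fold changes and a median of 0.76. It stood at 6.37, 21.3 and 13.8 CPM in NOD 1, 2 and 3, against 0.289, 0.339 and 0.804 CPM in ICR 1, 2 and 3 (log2 fold change 4.86 ± 0.60 SE, adjusted p = 0.0116 by edgeR), a call kept in 3 of 6 fits with 1 library left out. DESeq2 called 2 of the 11. Of 8 other type 1 genes, none was called by edgeR (3 higher at an unadjusted p under 0.05, 3 by DESeq2) and the median was 0.85. The lowest log2 fold changes were those of Cadm1 (−0.006), Tlr3 (0.07), Snx22 (0.14) and Naaa (0.33), all of which overlapped between the strains. The largest log2 fold changes were those of Itgae and Wdfy4. Itgae, the αE integrin of type 1 cells and intraepithelial T cells, had 3.26 ± 1.05 (SE, adjusted p = 0.228 by edgeR). Wdfy4, a factor of cross-presentation in type 1 cells, had 3.15 ± 0.65 (SE, adjusted p = 0.0589 by edgeR). Wdfy4 stood at 4.33, 16.7 and 7.82 CPM in NOD 1, 2 and 3, the order of the B cell marker sums. As 8 of the 9 tested dendritic cell genes, Cd209a among them, had the same order, it does not set Wdfy4 apart. The part of B cells in the Wdfy4 level was not tested. Irf8, a transcription factor of type 1 and plasmacytoid cells and of B cells, averaged 31.9 ± 7.77 CPM in NOD/Ltj and 12.3 ± 4.19 CPM in ICR (SD, n = 3 each, adjusted p = 0.0682 by edgeR).

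Of 7 tested type 2 genes other than Cd209a, none was called by edgeR (2 lower at an unadjusted p under 0.05, 1 lower by DESeq2), and the median was −0.55, or −0.06 without ICR 1. Their log2 fold changes were negative for 4 and positive for 3 (Irf4 1.01, Sirpa 0.71 and Esam 0.07). Among 5 tested ligands, receptors and growth factors, none was called by edgeR (3 higher at an unadjusted p under 0.05, 2 by DESeq2), and of 4 BATF family genes and partners none (0 at an unadjusted p under 0.05, 0 by DESeq2). Of the integrins related to Itgax, Itgal, the chain of LFA-1 on lymphocytes and other leukocytes, rose (2.65 ± 0.45 log2, SE, adjusted p = 0.0312 by edgeR), a call kept in 2 of 6 fits with 1 library left out. Cd207, a defining marker of Langerhans cells, was at 0 in 4 of 6 libraries and at no more than 20 counts. Markers of natural killer cells summed to 3.81 to 8.30 CPM in NOD/Ltj and 1.00 to 1.29 CPM in ICR, with 0 of 5 called by edgeR (2 higher at an unadjusted p under 0.05, 2 by DESeq2). Of 6 B cell markers, 5 rose (among them Ms4a1, Cd79a, Pax5 and Cd22, by 5.19 to 6.71 on the log2 scale), as did 5 of 6 T cell markers (Cd3e, Cd3g, Cd2 and Lck, by 3.86 to 4.78, and Cd5, with 118, 453 and 279 counts in NOD 1, 2 and 3 and 0, 0 and 4 in ICR 1, 2 and 3). Without NOD 3, 0 markers of either list were called, and without NOD 2 or ICR 3 there were 3 T cell markers called. DESeq2 called all 6 of each list, and limma-voom 3 B cell and 0 T cell markers. Spib, Cd83, Ccr7, Itgal and Itgax are also made by some lymphocytes, and each was lowest in NOD 1 among the NOD/Ltj libraries, as the lymphocyte sums were. NOD 1 was likewise the lowest for 8 of the 9 tested dendritic cell genes, Cd209a among them, so this order does not set the named genes apart. The part of lymphocytes in the levels of Spib, Cd83, Ccr7, Itgal and Itgax was not tested.

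**Figure D4:**
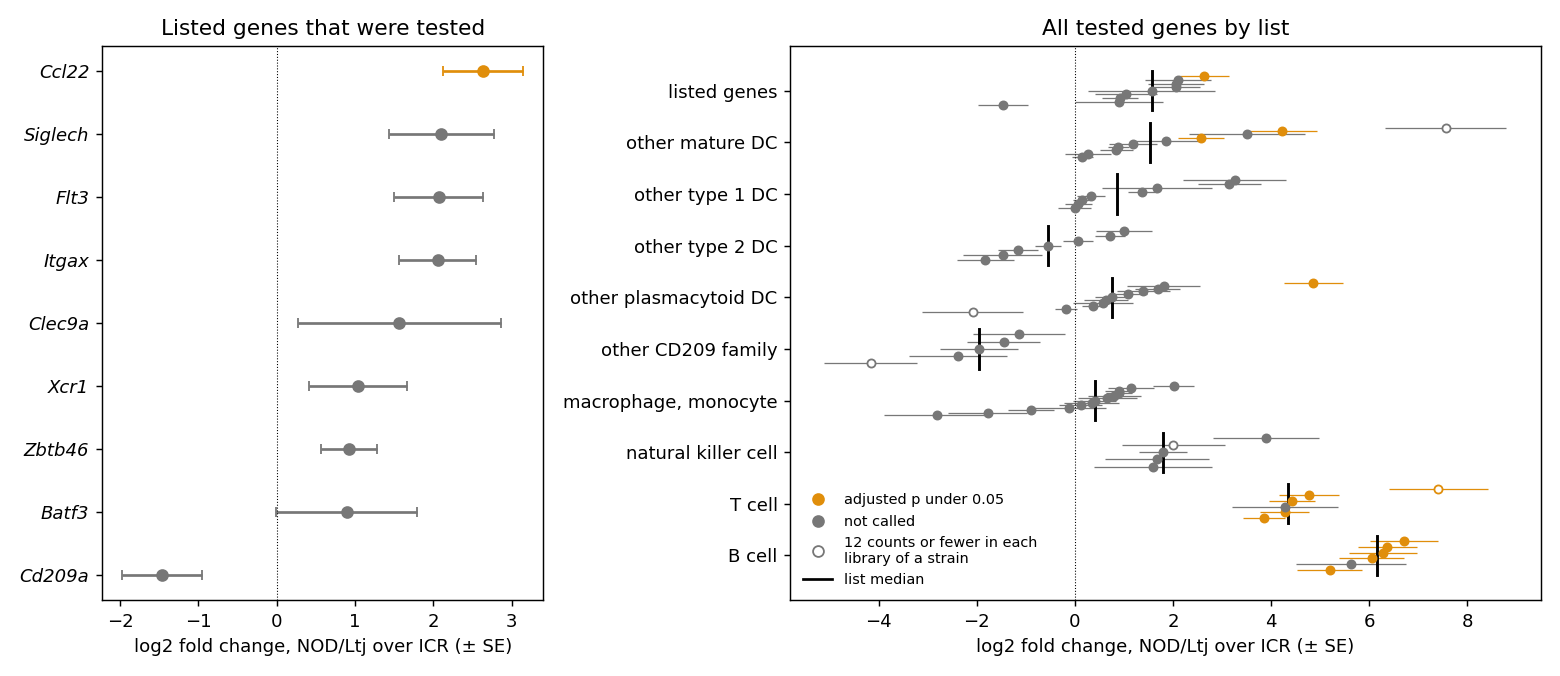
Log2 fold change of NOD/Ltj over ICR with its SE (x axis) for the 9 tested dendritic cell genes (left) and for all tested genes of each list (right), with called genes in orange, open points for genes with 12 counts or fewer in each library of a strain and black bars for list medians. Ccl22 is called at 2.64 and Cd209a lies at −1.46, while list medians run from −1.96 for the other CD209 genes to 6.17 for B cell markers.

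The genes with the most similar profiles were sought among 13954 genes with a mean of at least 1 CPM, as the smallest root mean square difference of centred log2 (CPM + 0.05) over the 6 libraries. For Itgax they were Galnt6 (0.126) and Naip5 (0.157), for Flt3 Gm37691 (0.127) and Dennd4b (0.132), and for Zbtb46 Cacnb3 (0.104) and Fmnl3 (0.109). Xcr1 was nearest to Mppe1 (0.0819) and Atp10b (0.211). Cd209a was nearest to Thbd (0.126) and Hic1 (0.137), Siglech to Ltk (0.291) and Il18rap (0.296), and Ccl22 to A530040E14Rik (0.26) and Gbp9 (0.264). Clec9a had no close neighbour, with Gm16092 at 0.706 and Trim5 at 0.761. The 6 libraries of 2 strains leave little room to tell profiles apart, so these are descriptions of these libraries.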

How the data were processed

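RNA of 6 lacrimal gland samples (3 NOD/Ltj, 3 ICR) was measured. The authors deposited estimated counts per gene, whole numbers and not scaled between libraries. Per the submitters' processing notes, fastp, StringTie and edgeR were used, with no role or version. The kit marked strand, per the labels' protocols, and neither aligner nor build nor strand setting is given in the sources used here. Symbols from GENCODE mouse release 21 matched 55141 of 55401 identifiers. Nothing in the labels says that samples came from separate animals, so the spread behind each p-value may be technical. All pairs of libraries differed (chi-square per degree of freedom 94.3 to 920).

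Tests were planned for counts, which the whole estimated counts allowed without rounding. NOD/Ltj was set over ICR with edgeR 4.0.16 in R 4.3.3 (quasi-likelihood test, TMM factors 0.809 to 1.26, filterByExpr, two-sided, Benjamini-Hochberg over 18537 genes, called under 0.05). The SE is the absolute log2 fold change over the root of F. Ratios used log2 (CPM + 0.05). DESeq2 1.42.0 and limma 3.58.1 were alternatives. The script was tested on simulated data. Exon lengths and 50-base windows came from GENCODE release 21, promoters from RefSeq (GRCm38.p6). The genes, lists and tests were chosen with earlier results of these data known, the motifs after the values were seen. All 10 genes were named, of the lists every called gene and those singled out after their values were seen, and for each tested gene its 2 nearest profiles. The profiles nearest to Batf3 and 1 called B cell marker are not reported here by name.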

Additional observations from a re-analysis of the deposited data

How the results depend on the processing

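Across the alternatives, no fitted fold change of the 9 tested dendritic cell genes changed its sign. The filter of 1 CPM in 3 libraries kept 7 of the 9, and counts divided by 4 kept 8. Ccl22, the 1 gene called, stayed called with DESeq2 size factors (adjusted p = 0.0499), with a filter of 1 CPM in 3 libraries (0.0372) and with counts divided by 4 (0.0385, all by edgeR). DESeq2 called 4 genes higher. Calls numbered 0 with limma-voom, without a filter (adjusted p of Ccl22 0.0615), with library totals as the only scale (0.0856, added after the data were seen) and whichever library was left out (0 to 0). Library totals moved the median of all genes by 0.122 log2. Over all genes, 349 were called higher and 67 lower, beside 898 and 285 with DESeq2, 123 and 20 with limma-voom, 226 and 40 with library totals, and 11 to 406 and 2 to 118 with 1 library left out. With the replicate number as a block, 0 dendritic cell genes and 129 higher and 25 lower genes were called. The deviations of same-numbered samples correlated at −0.13, −0.16 and 0.08, beside −0.076 to 0.179 between differently numbered samples. With 3 libraries per strain, these correlations cannot show whether same-numbered samples share more than a number. The count of genes below all ICR libraries in their ratio to Ptprc was 6, 9 with a pseudocount of 0.5 and 6 to 7 with 1 library left out, but 1 with Itgb2 as denominator. Then the differences of Itgax (0.35), Flt3 (0.22), Clec9a (0.78), Siglech (0.58) and Ccl22 (0.62) turned positive, and against Ptprc that of Clec9a ran from −1.49 without ICR 2 to 0.47 without ICR 3. The cause was not tested. Depth limits Ccl17, Clec9a, Batf3, Xcr1 and Siglech most, which had ICR libraries at or under 12 counts.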
